A study of Drosophila melanogaster and Drosophila simulans and Drosophila yakuba with 72 samples.

Results

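Males of the African strain Zimbabwe-109 were compared with males of 3 cosmopolitan laboratory strains, Oregon-R, Canton-S and Samarkand, at puparium formation, the onset of metamorphosis in Drosophila melanogaster. The comparison used 16 of the 72 samples of the series, chosen by their labels as male, at the state marked PF, and of these 4 genotypes, with 4 samples per strain. Each Zimbabwe-109 value was set against the equal-weight mean of the other 3 strains. The samples were RNA from whole animals, pooled per sample as about 120 mg or 60 to 80 individuals, reared at 25 °C without crowding in medium with bromophenol blue, and no strain carried a transgene or treatment that the labels mention. MicroRNA (miRNA) was measured on 2-colour oligonucleotide arrays that each held the puparium formation sample of a strain, sex and replicate number beside its partner from an earlier stage, marked in the labels as at least 18 before puparium formation and read here as hours. Males of the same 4 strains at that earlier stage, and females of Zimbabwe-109 and Oregon-R at puparium formation, again 4 samples per group, showed where a strain difference recurred. Africa is represented here by 1 strain, so its origin and the strain itself cannot be told apart, and a permutation of the 4 strains could give no p below 0.25. The p-values below rest on the spread between samples within all 18 groups of the series, fitted together, and do not cover the spread between African strains.

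A miRNA is a short RNA that guides Argonaute proteins to messenger RNAs, mainly through the bases near its 5′ end called the seed, and lowers the output of its targets. At puparium formation a pulse of the steroid hormone ecdysone ends larval life, and the let-7 complex, which holds let-7, miR-100 and miR-125, is known to be switched on around this time. African populations of D. melanogaster are the ancestral ones, and strains from Zimbabwe are known for partial mating isolation from cosmopolitan strains.

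The sequences below are the array targets behind the main results, read 5′ to 3′ from the deposited arrays, with the seed (bases 2 to 8) in capitals. The first 4 were higher in Zimbabwe-109 and the next 4 were lower. The remaining ones are the targets of probes named for other species that lie close to a D. melanogaster target and are compared with it below, together with the D. melanogaster targets that the first 8 lack.
dme-mir-314-5p: aACUUGUGuggcuucgaacuuacc
miR-956: uUUCGAGAccacucuaauccauu
miR-1010: uUUCACCUaucguuccauuugcag
miR-10-5p: aCCCUGUAgauccgaauuuguu
miR-289: uAAAUAUUuaaguggagccugcgacu
miR-279: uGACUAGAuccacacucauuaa
miR-305: aUUGUACUucaucaggugcucug
miR-125: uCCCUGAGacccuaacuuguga
lmi-miR-10: uACCCUGUagauccgaauuugu
dan-miR-289: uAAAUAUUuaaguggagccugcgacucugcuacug
bantam: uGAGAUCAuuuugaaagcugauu
aae-bantam-3p: uGAGAUCAuuuugaaagcugau
miR-2a: uAUCACAGccagcuuugaugagc
aae-miR-2a: uAUCACAGccagcuuugaagagc
miR-275: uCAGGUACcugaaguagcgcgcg
aae-miR-275: uCAGGUACcugaaguagcgc
The first 8 targets have 8 different seeds, so the D. melanogaster miRNAs shown did not share one.

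Levels are log2 intensities after background correction and normalization, and each difference is Zimbabwe-109 minus the mean of the other 3 strains ± SE, from limma. Of the array's 1339 probes, 272 were bright enough in at least 1 group of the series to be tested, 90 of them listed for D. melanogaster. Between 110 and 252 probes lay above background in the 16 samples, with a median of 166. Within a strain, a sample's median correlation with the others was 0.961 to 0.988, lowest for Zimbabwe-109 replicate 3, which also had the fewest probes above background. The array slides, read here from a code in the names of the deposited arrays, followed the strains. All Oregon-R samples were on 1 slide and all Canton-S samples on another, and only Samarkand shared a slide with Zimbabwe-109. For the comparisons with Oregon-R and Canton-S, strain and slide therefore cannot be told apart. A further code in these names, of unstated meaning, was shared by Zimbabwe-109 with no other strain, in males or females. What it stands for cannot be told apart from strain in any comparison, the shared slide included. As a check of the stage, let-7 was above background in 16 of 16 samples and higher at puparium formation than earlier by 4.96 in Zimbabwe-109 and by 4.65 in the mean of the others.

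At an adjusted p under 0.05, called below, 38 probes differed between Zimbabwe-109 and the mean of the others, 14% of those tested, 23 higher (8.46%) and 15 lower (5.51%). Among D. melanogaster probes 12 of 90 were called, or 13.3%, with 5 higher and 7 lower. The share of higher calls depended on the scaling: centring each channel on its median gave 18 higher and 6 lower, the authors' deposited values gave 3 and 31 with the median of all probes at -0.45, and those values centred gave 2 and 0. It also depended on the samples: a fit on the 16 male samples alone gave 18 higher and 19 lower, the fit without Zimbabwe-109 replicate 2 gave 15 and 16, and the fit on D. melanogaster samples alone gave 18 and 9. Of the 38 called probes 37 differed from each of the 3 strains with the same sign, and 15 were also called against each strain alone. The 4 Zimbabwe-109 samples lay outside the range of all 12 others for 12 called probes, against 12 of all 272 tested (4.41%), 8 of them above (2.94%) and 4 below (1.47%). The median difference was 0.84 for the higher calls and -0.76 for the lower ones, and 12 of the 38 exceeded 1 in size. The count was 25 without Zimbabwe-109 replicate 1, 19 with slide as a random block, and 62 without Samarkand in the mean.

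**Figure D1:**
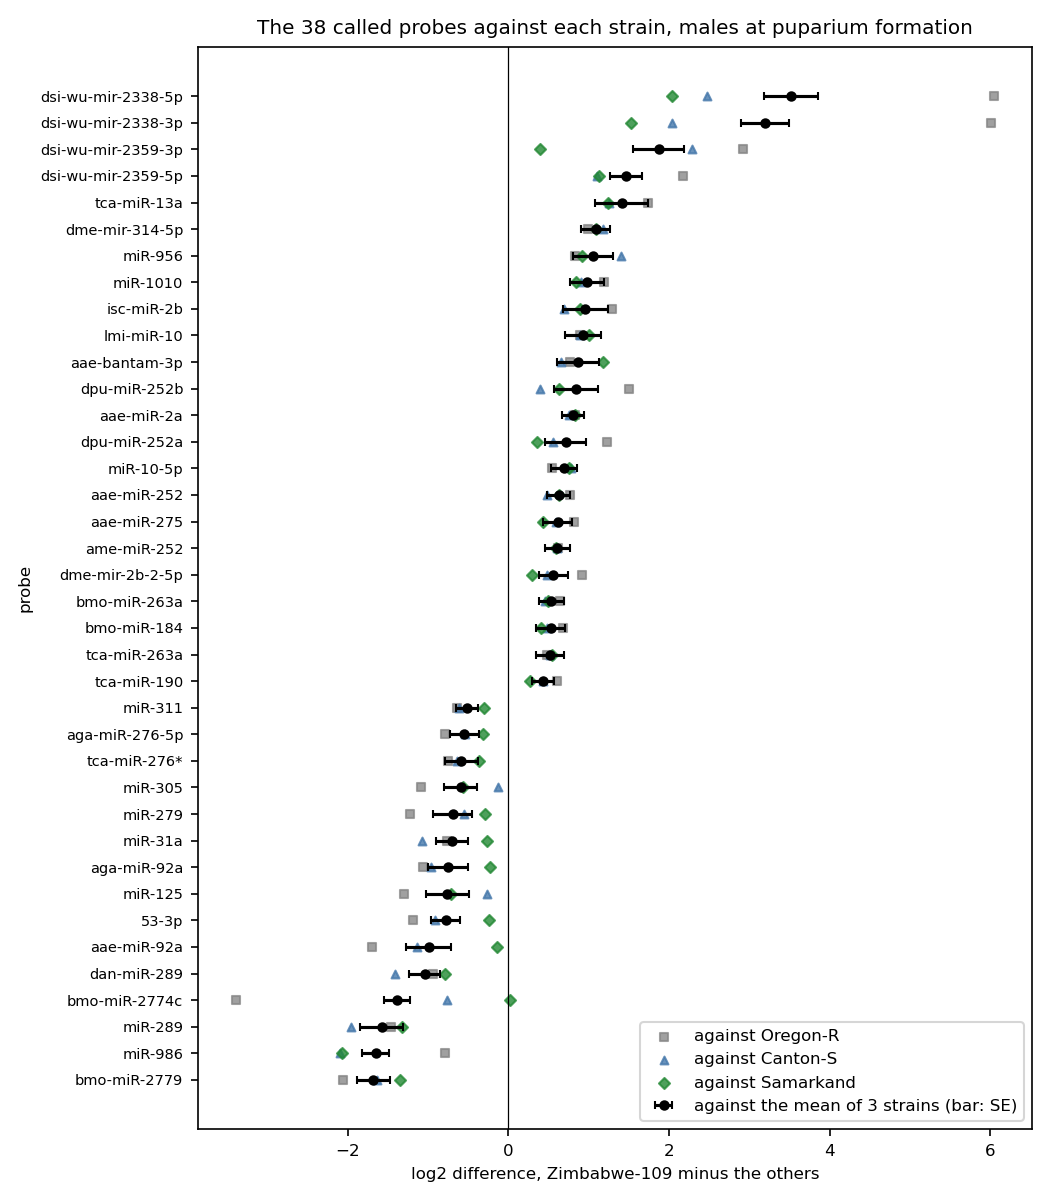
Log2 difference of Zimbabwe-109 from the mean of the other 3 strains (black points, bars give SE) and from each strain alone (coloured symbols) for the 38 called probes, in males at puparium formation. The 2 arms of dsi-wu-mir-2338 stand apart at 3.52 and 3.19, and bmo-miR-2774c is the called probe whose symbols fall on both sides of 0.

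The 5′ arm of miR-314 and miR-956 were higher in Zimbabwe-109, and the genes of both are next to each other in the RefSeq annotation (Release 6). The dme-mir-314-5p probe, for the 5′ arm of miR-314, read 7.03, 6.76, 7.79 and 7.12 in Zimbabwe-109. In Oregon-R it read 6.53, 5.71, 6.22 and 6.27, in Canton-S 5.91, 5.74, 6.32 and 6.03 and in Samarkand 6.19, 5.97, 6.20 and 5.97. All 4 Zimbabwe-109 samples were above all 12 others, of which 0 passed the background limit, against 2 of 4 in Zimbabwe-109. The fitted difference was 1.09 ± 0.18 (adjusted p = 7.84e-06), against 4.23 with plain background subtraction. As 2 of the 4 Zimbabwe-109 samples were not above background either, no lower limit of the fold is given. The probe dsi-mir-314-5p, which differs from it in 2 of 23 aligned bases, was below background in 16 of 16 samples. miR-956 read 8.58, 8.11, 7.72 and 7.997 in Zimbabwe-109. It read 7.38, 7.25, 6.98 and 7.48 in Oregon-R, 6.69, 6.86, 6.69 and 6.56 in Canton-S and 7.04, 7.01, 7.29 and 7.39 in Samarkand. The 4 Zimbabwe-109 samples were again above the 12 others, and Canton-S was the lowest strain. miR-956 was 1.05 ± 0.25 higher, or 2.07-fold (adjusted p = 0.00129), against a log2 difference of 1.99 with plain background subtraction. It was above background in 3 of 4 Zimbabwe-109 and 9 of the 12 other samples. In the authors' deposited values neither probe was called, with dme-mir-314-5p at 3.97 (adjusted p = 0.0584) and miR-956 at 1.145 (adjusted p = 0.113).

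Among the 75 D. melanogaster probes, 11 of them called, with 1 located gene in that annotation, this was the single pair of called neighbours within 10000 bases. Other called miRNAs had neighbours that were not called. miR-305 fell by 0.59 ± 0.20 while miR-275, 79 bases away, differed by 0.02 ± 0.15 (adjusted p = 0.965). miR-279 had its neighbour dme-mir-996-5p at 0.06 ± 0.17 (adjusted p = 0.914). The difference between such neighbours was not tested. By chromosome arm, 2 of 18 located probes were called on 2L, 3 of 14 on 2R, 3 of 16 on 3L, 3 of 23 on 3R and 0 of 4 on X.

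miR-1010 is a mirtron, a miRNA released from an intron by splicing. It read 7.85, 6.57, 6.37 and 8.02 in Zimbabwe-109, 5.90, 5.87, 6.09 and 6.18 in Oregon-R, 6.40, 6.67, 6.07 and 6.03 in Canton-S and 6.23, 6.09, 6.91 and 6.21 in Samarkand. Zimbabwe-109 was split, with replicates 1 and 4 near 8 and the other two within the range of the other strains, and the probe was above background in 2 of 4 Zimbabwe-109 and 2 of the 12 other samples. The difference was 0.98 ± 0.21 (adjusted p = 4.17e-04), against 3.49 with plain background subtraction. In the authors' deposited values it was 2.75 and not called (adjusted p = 0.304). The other tested mirtron, miR-1012, was not called, at -0.09.

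miR-10-5p, whose gene lies among the Hox genes of the Antennapedia complex, was 0.70 ± 0.16 higher in Zimbabwe-109, or 1.62-fold (adjusted p = 0.00112). Its level was 12.74, 12.11, 12.50 and 12.61 in Zimbabwe-109, 12.10, 11.53, 11.99 and 12.14 in Oregon-R, 11.47, 11.66, 11.76 and 11.92 in Canton-S and 11.73, 11.56, 11.87 and 11.79 in Samarkand. The lowest Zimbabwe-109 sample fell just below the highest Oregon-R one, so the groups overlapped. The locust-named probe lmi-miR-10 has the same target shifted by 1 base, with 21 bases in common, and was 0.93 ± 0.22 higher (adjusted p = 0.00129). It read 12.22, 11.87, 11.89 and 11.93 in Zimbabwe-109 and between 10.47 and 11.53 in the 12 others, with no overlap. A further probe, der-miR-10, differed by 0.28 ± 0.24 and was not called (adjusted p = 0.496). The 3′ arm, miR-10-3p, differed by 0.27 ± 0.19 and was not called (adjusted p = 0.375). In the authors' deposited values miR-10-5p differed by -0.21 (adjusted p = 0.81), where the median of all probes was -0.45.

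dme-mir-2b-2-5p, the passenger arm of a miR-2 gene, was the called member of the D. melanogaster miR-2 and K-box probes, a family known to restrain pro-apoptotic genes. It was 0.56 ± 0.18 higher (adjusted p = 0.0259), 0.92 against Oregon-R and 0.30 against Samarkand, and its groups overlapped. It was not called in the fit on the 16 male samples alone (adjusted p = 0.0979) or on D. melanogaster samples alone (adjusted p = 0.0723).

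**Figure D2:**
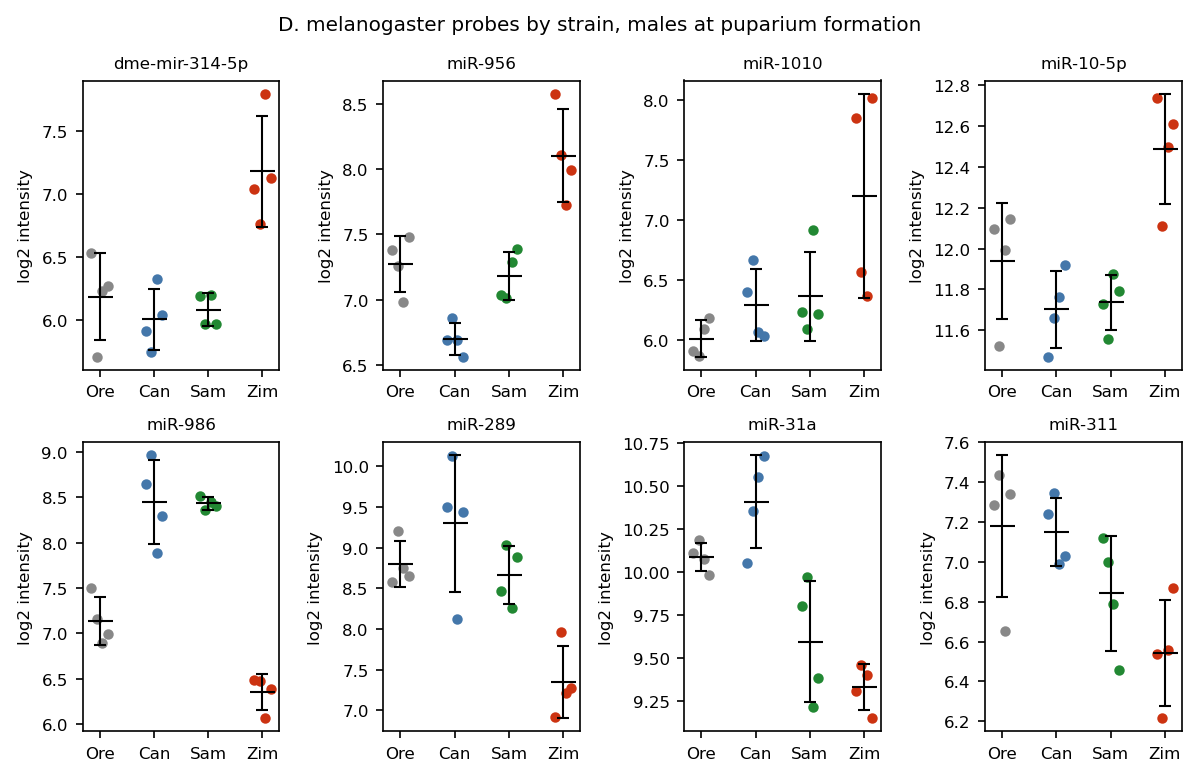
Log2 intensity of 8 called D. melanogaster probes in the 16 male samples at puparium formation (points; each panel has its own axis, the black dash is the mean and the bars the SD of 4 samples; the axes shorten each strain name to its first 3 letters). The 4 probes of the upper row are higher and the 4 of the lower row lower in Zimbabwe-109, with no overlap for dme-mir-314-5p, miR-956, miR-986 and miR-289.

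miR-986 and miR-289 had the largest falls among the D. melanogaster probes. miR-986 read 6.49, 6.47, 6.07 and 6.39 in Zimbabwe-109. In Oregon-R it read 7.50, 7.16, 6.90 and 6.997, in Canton-S 8.65, 8.96, 7.89 and 8.30 and in Samarkand 8.52, 8.36, 8.44 and 8.40. Zimbabwe-109 was below every other sample, and Oregon-R lay between it and the other pair of strains. miR-986 fell by 1.65 ± 0.17 (adjusted p = 9.39e-12). Only 2 of the 4 Zimbabwe-109 samples passed the background limit, and with plain background subtraction miR-986 fell by 3.96. In the authors' deposited values miR-986 differed by -2.67 and was not called (adjusted p = 0.0632). Its fall was 0.78 against Oregon-R, 2.09 against Canton-S and 2.08 against Samarkand, and the 3 cosmopolitan strains also differed among themselves (F test, adjusted p = 3.7e-07).

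miR-289 read 6.92, 7.97, 7.22 and 7.27 in Zimbabwe-109. It read 8.57, 9.21, 8.75 and 8.66 in Oregon-R, 9.50, 10.12, 8.13 and 9.44 in Canton-S and 8.47, 9.03, 8.26 and 8.88 in Samarkand. The highest Zimbabwe-109 sample was below the lowest of the others, a Canton-S sample. The fall was 1.58 ± 0.27, or 2.98-fold (adjusted p = 9.17e-06), and the F test among the 3 other strains was not called (adjusted p = 0.303). The probe dan-miR-289, whose 35-base target contains the 26 bases of the miR-289 target, fell by 1.04 ± 0.20 (adjusted p = 4.80e-05); it lies outside the naming rule and was chosen after its values were seen.

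Lower levels that were smaller or rested on 1 strain followed. miR-31a, a probe of the growth and cell survival list, read 9.31, 9.46, 9.40 and 9.15 in Zimbabwe-109 and 9.80, 9.97, 9.22 and 9.38 in Samarkand, which overlapped. It read 10.11, 10.18, 10.07 and 9.98 in Oregon-R and 10.05, 10.35, 10.55 and 10.67 in Canton-S, all above Zimbabwe-109. Its fall was 0.70 ± 0.19 (adjusted p = 0.00826), with 0.26 against Samarkand alone (adjusted p = 0.63). miR-311, of the fast-evolving miR-310 cluster, fell by 0.51 ± 0.14 (adjusted p = 0.00542) and was 0.30 lower against Samarkand (adjusted p = 0.33). Its neighbours miR-312 and dme-mir-313-5p differed by -0.34 ± 0.14 and -0.03 ± 0.38 and were not called (adjusted p = 0.0928 and 0.965).

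miR-305, known from insulin and Notch signalling in the gut, miR-279, which limits the formation of carbon dioxide sensing neurons, and miR-125 were called close to the threshold. miR-305 fell by 0.59 ± 0.20 (adjusted p = 0.0433), by 1.09 against Oregon-R and by 0.13 against Canton-S. miR-279 fell by 0.69 ± 0.24 (adjusted p = 0.0441), by 1.23 against Oregon-R and by 0.29 against Samarkand. Oregon-R was the highest strain for both. miR-305 was still called in 8 of the 16 fits that left out 1 sample, miR-279 in 6 and miR-125 in 7, with the highest adjusted p at 0.165, 0.278 and 0.28. In the fit on the 16 male samples alone miR-279 and miR-125 were not called (adjusted p = 0.0701 and 0.17). In the fit on D. melanogaster samples alone none of the 3 was called (adjusted p = 0.078 for miR-305, 0.0845 for miR-279 and 0.0955 for miR-125). The other arm of the same gene, dme-mir-305-3p, chosen after its values were seen, differed by 0.52 ± 0.21 (adjusted p = 0.0913). Samarkand was the low strain for dme-mir-305-3p, at 6.18 ± 0.11 (SD, n = 4) with 0 of 4 samples above background, against 8.57 ± 0.64 in Zimbabwe-109. That difference was called over all samples (adjusted p = 1.64e-10) and within the shared slide described below (adjusted p = 0.0195).

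The let-7 complex, known for timing the larval to adult transition, held 1 called probe, miR-125. let-7 read 12.57, 12.27, 12.81 and 11.64 in Zimbabwe-109 and from 11.63 to 12.82 in the other strains, and differed by 0.09 ± 0.26 (adjusted p = 0.914). miR-100 read 8.20, 7.67, 7.11 and 7.87 in Zimbabwe-109, 8.17, 8.37, 7.94 and 8.63 in Oregon-R, 6.47, 6.57, 6.22 and 6.43 in Canton-S and 8.62, 8.46, 8.61 and 8.90 in Samarkand. Canton-S was the low strain for miR-100, with all 4 samples below every other sample, and Zimbabwe-109 was 1.29 above it (adjusted p = 3.5e-05) but 0.93 below Samarkand (adjusted p = 0.0058). The mean of the 3 therefore lay close to Zimbabwe-109, at a difference of -0.07 ± 0.19 (adjusted p = 0.914). miR-125 read 7.56, 6.37, 6.96 and 7.46 in Zimbabwe-109 and from 6.84 to 8.90 in the others, and fell by 0.76 ± 0.27 (adjusted p = 0.0441), most against Oregon-R, at 1.30. Its Oregon-R replicate 4 read 7.18, apart from 8.69 to 8.90 in the other three. The miR-125 probe was above background in 2 of 4 Zimbabwe-109 and 11 of the 12 other samples. A further probe, ame-miR-125, chosen after its values were seen, was above background in 4 of 4 and 12 of 12. It differed by -0.25 ± 0.27 and was not called (adjusted p = 0.647).

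**Figure D3:**
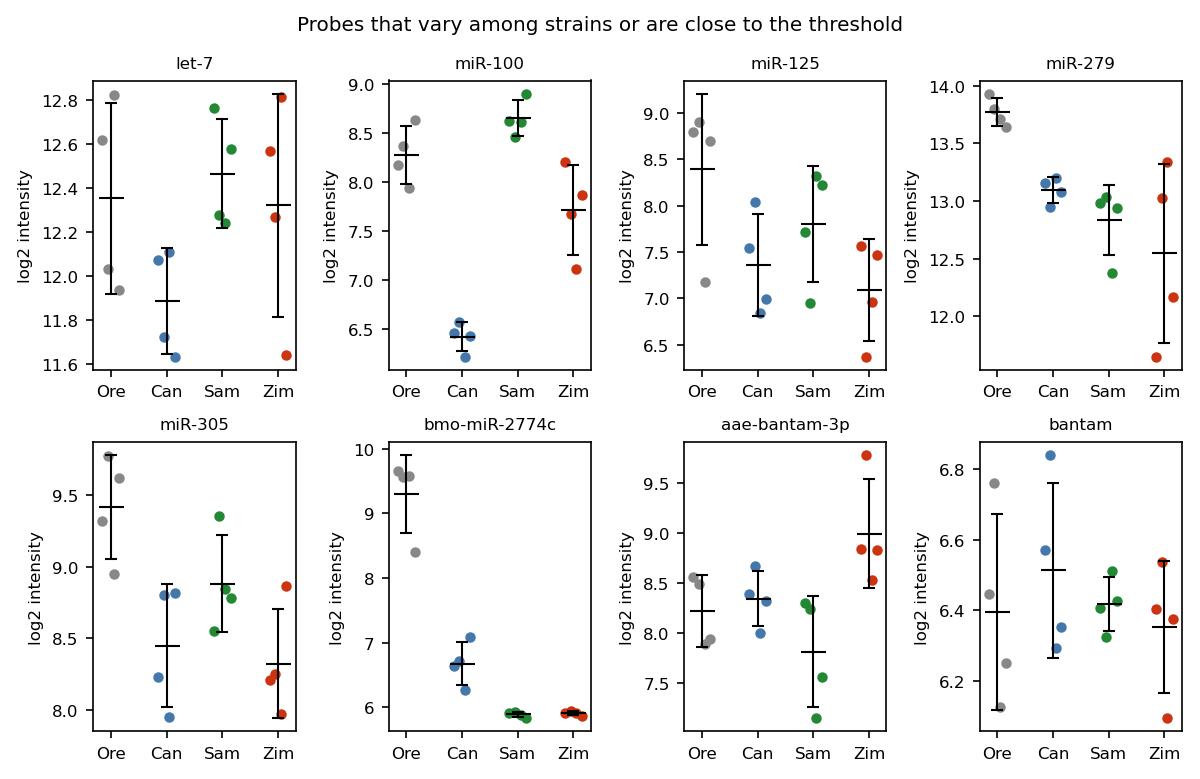
Log2 intensity in the 16 male samples at puparium formation (points, each panel with its own axis; dash and bars give mean and SD of 4 samples; strains as Ore, Can, Sam and Zim) for the let-7 complex, miR-279, miR-305, bmo-miR-2774c and the pair of bantam probes. Canton-S is low for miR-100, Oregon-R alone is high for bmo-miR-2774c, and the groups of let-7 and bantam overlap.

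Of the other miRNA lists, at most 1 member each was called, beside 12 of the 90 D. melanogaster probes (13.3%), 5 higher and 7 lower. The median difference of all tested probes was -0.01 and that of all D. melanogaster probes -0.07. The ecdysone and heterochronic list had 0 higher and 1 lower of 12, the list for metabolism, gut and fat body 0 and 1 of 15, and the growth and cell survival list 0 and 1 of 13, with medians of -0.07, -0.20 and -0.11. The miR-2 and K-box list had 1 higher and 0 lower of 10 (median -0.05), the Hox list 1 and 0 of 3 (median 0.27) and the mirtrons 1 and 0 of 2 (median 0.44). The nervous system and sense organ lists each had 0 higher and 1 lower of 9, in both cases miR-279, with medians of -0.16 and 0.11. The miR-310 cluster had 0 higher and 1 lower of 3 (median -0.34) and the let-7 complex 0 and 1 of 5 (median -0.07). The muscle list had 0 called of 4 (median -0.19) and the miR-34 cluster 0 of 4 (median -0.25). miR-1, the main muscle miRNA, differed by 0.49 ± 0.25 (adjusted p = 0.177), and miR-34, which ecdysone is known to repress, by 0.19 ± 0.19 (adjusted p = 0.603). Of the testis and young miRNAs 3 of 25 probes on the array could be tested and 0 were called (median 0.05), and 0 of 11 ovary probes could be tested. Of the 20 tested probes whose targets hold runs of G, 0 were called.

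The largest differences of all belonged to custom probes of the array, for which the files give no gene. Both arms of dsi-wu-mir-2338 were much higher in Zimbabwe-109. The 5p probe read 11.83, 11.27, 13.05 and 12.58 in Zimbabwe-109, 10.02, 9.72, 11.54 and 9.31 in Samarkand, 9.43, 9.18, 9.95 and 10.27 in Canton-S and 6.54, 5.28, 6.32 and 6.40 in Oregon-R. The order was Zimbabwe-109, then Samarkand and Canton-S, then Oregon-R, where 0 of 4 samples passed the background limit, and 1 Samarkand sample (11.54) exceeded the lowest Zimbabwe-109 one. The 3p probe read 11.92, 11.85, 13.46 and 11.79 in Zimbabwe-109, and from 9.54 to 11.46 in Canton-S and Samarkand, with Oregon-R again below background in 4 of 4. The difference from the mean of the 3 strains was 3.52 ± 0.34 for the 5p probe (adjusted p = 1.32e-12) and 3.19 ± 0.30 for the 3p probe (adjusted p = 1.15e-12). With plain background subtraction these differences were 5.14 and 4.41. Against Oregon-R the levels were at least 41.7-fold and 44.0-fold higher, and against Samarkand 2.04 and 1.53 higher on the log2 scale (adjusted p = 4.3e-04 and 0.0035).

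The arms of dsi-wu-mir-2359 had a related order of strains. The 3p probe was 1.87 ± 0.32 higher in Zimbabwe-109 (adjusted p = 9.36e-06), at least 4.41-fold above Oregon-R, where it was below background in 4 of 4, but 0.40 above Samarkand (adjusted p = 0.7). The 5p probe was 1.47 ± 0.20 higher (adjusted p = 2.98e-08) and at least 2.66-fold above Oregon-R. Oregon-R also differed from Samarkand, by at least 10.2-fold and 15.2-fold for the 5p and 3p probes of dsi-wu-mir-2338. For the 3p probe of dsi-wu-mir-2359 it was at least 3.35-fold. For its 5p probe the same calculation gave 1.22-fold, which is no firm limit, as only 3 of 4 Samarkand samples were above background.

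Probes named for the silkworm (bmo) gave 2 further large differences in fly RNA. bmo-miR-2779 fell by 1.68 ± 0.21 in Zimbabwe-109 (adjusted p = 2.25e-09). It read 8.27, 8.40, 6.99 and 8.28 there and from 9.08 to 10.59 in the others, with no overlap. bmo-miR-2774c was called lower, by 1.38 ± 0.16 (adjusted p = 6.97e-10), yet it set Oregon-R apart rather than Zimbabwe-109. It read 9.66, 9.57, 9.57 and 8.40 in Oregon-R, 6.64, 6.71, 6.27 and 7.08 in Canton-S, and from 5.83 to 5.95 in Samarkand and Zimbabwe-109, where 0 of 8 samples passed the background limit. Zimbabwe-109 was at least 6.57-fold below Oregon-R and differed from Samarkand by 0.02 (adjusted p = 0.98). The custom probe 53-3p fell by 0.78 ± 0.18 (adjusted p = 9.68e-04), by 1.19 against Oregon-R and by 0.24 against Samarkand (adjusted p = 0.63), and was not called in the fit on the 16 male samples alone (adjusted p = 0.0691).

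Of the tested probes 90 of 272 were listed for D. melanogaster, and of the called ones 12 of 38. The called share was 13.3% among D. melanogaster probes and 14% over all probes. For called probes not listed for D. melanogaster, the closest D. melanogaster probe was mostly not called. Of the 26 called probes not listed for D. melanogaster, 18 matched the target of a tested D. melanogaster probe in at least 17 bases. That D. melanogaster probe was called for 2 of the 18, miR-289 and miR-10-5p, and not called for 16, although the sign was shared for 16 of the 18. The mosquito-named aae-bantam-3p has the target of bantam, the growth-promoting miRNA, without its last base, as the sequences above show. aae-bantam-3p was 0.87 ± 0.26 higher (adjusted p = 0.0141) and bantam differed by -0.09 ± 0.17 (adjusted p = 0.849), the latter above background in 5 of 16 samples. aae-miR-2a differs from miR-2a in 1 of 23 bases, and read 0.81 ± 0.14 higher (adjusted p = 9.17e-06) against 0.15 ± 0.21 for miR-2a (adjusted p = 0.753). aae-miR-275 is miR-275 without its last 3 bases, and was 0.62 ± 0.18 higher (adjusted p = 0.0123) against 0.02 ± 0.15. aae-miR-2a and aae-miR-275 were chosen after their values were seen, and the differences between probes of a pair were not tested.

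Other probes of this kind included tca-miR-13a, 1.41 ± 0.33 higher (adjusted p = 0.00112), whose nearest D. melanogaster probe, miR-13b, differed by -0.10 ± 0.25. isc-miR-2b was 0.96 ± 0.28 higher (adjusted p = 0.0133). dpu-miR-252b was 0.84 ± 0.28 higher (adjusted p = 0.0339), and miR-252 itself 0.37 ± 0.17 (adjusted p = 0.137). aae-miR-92a fell by 0.99 ± 0.28 (adjusted p = 0.00959), against -0.35 ± 0.27 for miR-92a (adjusted p = 0.462). tca-miR-276* and aga-miR-276-5p fell by 0.58 ± 0.20 and 0.55 ± 0.18 (adjusted p = 0.0441 and 0.0329), and miR-276* differed by -0.38 ± 0.19 (adjusted p = 0.18). tca-miR-276* was still called in 5 of the 16 fits that left out 1 sample and aga-miR-276-5p in 12, with the highest adjusted p at 0.15 and 0.114. In the fit on the 16 male samples alone isc-miR-2b and dpu-miR-252b were not called (adjusted p = 0.0863 and 0.0665). In the fit on D. melanogaster samples alone dpu-miR-252b, tca-miR-276* and aga-miR-276-5p were not called (adjusted p = 0.0723, 0.0988 and 0.0894).

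Zimbabwe-109 differed most from Oregon-R, with 76 probes called (27.9%), against 36 from Canton-S (13.2%) and 30 from Samarkand (11%); the 3 counts share the Zimbabwe-109 samples. For 27 of the 38 probes the difference was largest against Oregon-R, and for 23 it was smallest against Samarkand. Among the cosmopolitan strains themselves, Oregon-R differed from Samarkand at 56 probes (20.6%) and from Canton-S at 25 (9.19%), and Canton-S from Samarkand at 10 (3.68%). The F test among these 3 strains called 50 probes (18.4%), including 12 of the 38. The fit with slide as a fixed term leaves the comparison with Samarkand alone. It used only the samples on the slides that held Samarkand or Zimbabwe-109 males. In it 32 of the 38 kept their sign and 18 were called, while 45 of all 272 probes were called. The 30 calls above come from all 72 samples without a slide term, so the counts differ in samples as well as in that term. Zimbabwe-109 replicates 1 to 3 share a slide with Samarkand replicates 3 and 4. Within this slide 32 of the 38 kept their sign and 1 was called, against 3 of all 272. Both fits reuse samples by which the 38 were chosen, and 37 of the 38 already had the same sign against each strain. The kept signs are therefore no separate support.

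In males of the earlier stage the same contrast called 59 probes (21.7%), 24 higher (8.82%) and 35 lower (12.9%). Of the 38 probes, 33 had the same sign at that stage and 12 were also called with it. Each earlier sample was on the array of a puparium formation sample of its strain. A difference that recurs at both stages therefore does not separate strain from slide. miR-986 fell by 1.48 ± 0.17 (adjusted p = 2.31e-10) and dme-mir-314-5p was 1.12 ± 0.18 higher (adjusted p = 1.98e-06), close to their values at puparium formation, with interactions with stage that were not called (adjusted p = 0.643 and 0.974). miR-31a and miR-311 fell by 0.86 ± 0.19 and 0.50 ± 0.14 at the earlier stage (adjusted p = 4.49e-04 and 0.00404). The interaction with stage was called for 51 of all probes (18.8%) and for 14 of the 38. The change from the earlier stage to puparium formation was itself called for 57% of the probes in Zimbabwe-109 and 56.6% in the mean of the other strains.

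miR-10-5p changed the direction of its strain difference between the stages. Earlier it fell by 0.49 ± 0.16 in Zimbabwe-109 (adjusted p = 0.0207), and the interaction was 1.18 ± 0.17 (adjusted p = 2.95e-07). From the earlier stage to puparium formation it rose by 0.99 in Zimbabwe-109 (adjusted p = 1.3e-07) and changed by -0.19 in the mean of the others (adjusted p = 0.054). miR-956 and miR-289 differed between strains at puparium formation, but by 0.07 ± 0.25 and -0.28 ± 0.27 earlier (adjusted p = 0.866 and 0.471), with interactions of 0.98 ± 0.27 and -1.30 ± 0.29 (adjusted p = 0.00534 and 5.29e-04). Towards puparium formation miR-956 fell by 0.93 in the mean of the others (adjusted p = 2.5e-08) and changed by 0.05 in Zimbabwe-109 (adjusted p = 0.86). For miR-279 the difference was larger earlier, where it fell by 2.02 ± 0.24 (adjusted p = 8.69e-10). Its earlier means were 12.85 in Oregon-R, 10.66 in Canton-S, 10.63 in Samarkand and 9.36 in Zimbabwe-109, so the fall was largest against Oregon-R.

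Custom and silkworm-named probes had the largest interactions with stage. dsi-wu-mir-2338-5p averaged 9.14 ± 0.49 (SD, n = 4) in earlier Zimbabwe-109 males, below Canton-S at 9.69 ± 0.26 and Samarkand at 10.17 ± 0.11, and rose by 3.04 to puparium formation (adjusted p = 2.6e-12) while the mean of the others changed by -0.38 (adjusted p = 0.074). dsi-wu-mir-2208-3p went the other way. It averaged 14.59 ± 0.75 (SD, n = 4) in earlier Zimbabwe-109 males, 5.00 ± 0.44 above the mean of the others (adjusted p = 4.89e-14), and fell by 7.02 to puparium formation (adjusted p = 1.5e-21), where it differed by 0.82 ± 0.44 (adjusted p = 0.213). Its target holds runs of G, and such probes moved together at the earlier stage: 11 of the 20 tested were called, all higher in Zimbabwe-109, with a median of 1.47 against -0.08 over all probes, and its part in the result was not tested. bmo-miR-3366 averaged 12.51 ± 1.06 (SD, n = 4) in earlier Zimbabwe-109 males and at most 6.99 in the other earlier groups, and was below background in 16 of 16 samples at puparium formation. Within Zimbabwe-109 that drop was at least 58.7-fold, and for the custom probe 73-3p at least 4.34-fold. In the authors' deposited values the interaction with stage was not called for dsi-wu-mir-2208-3p (-2.59, adjusted p = 0.26) or 73-3p (-3.50, adjusted p = 0.323).

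**Figure D4:**
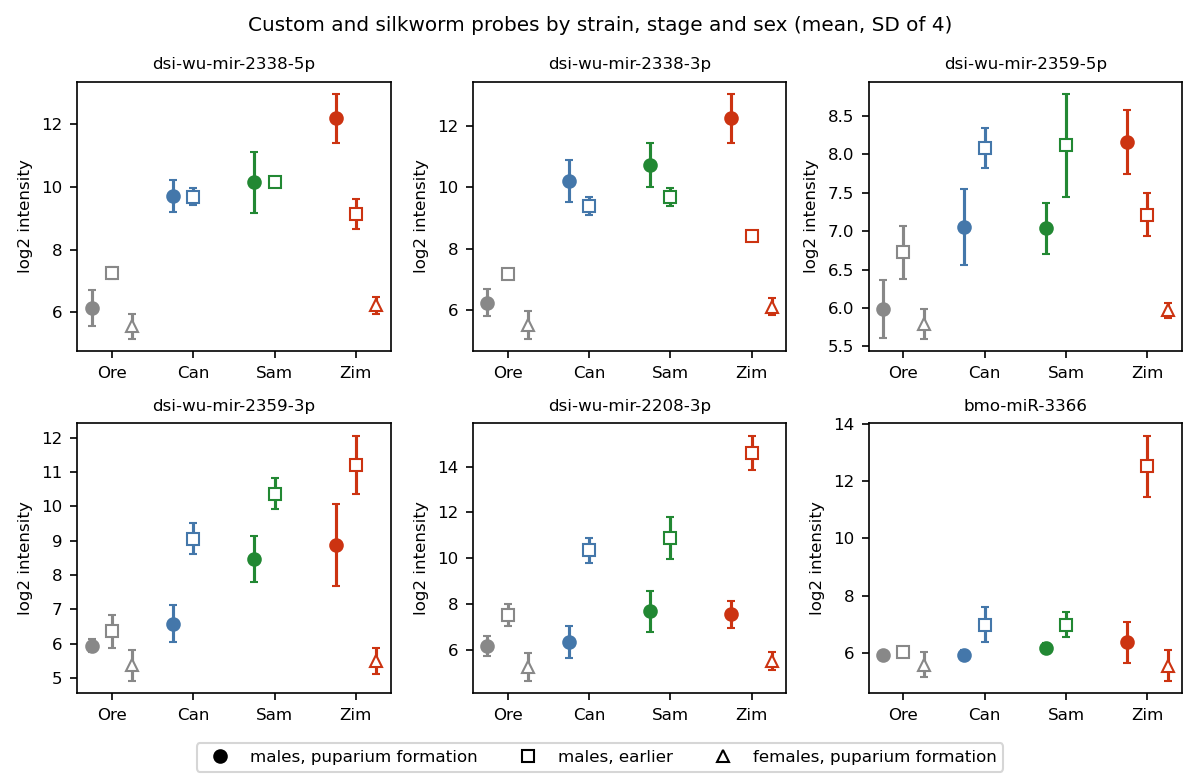
Mean and SD (4 samples) of the log2 intensity of 6 custom or silkworm-named probes in males at puparium formation (filled circles), earlier males (open squares) and, for Oregon-R and Zimbabwe-109, females at puparium formation (open triangles), each panel with its own axis. Zimbabwe-109 males are high at puparium formation for the dsi-wu-mir-2338 arms and at the earlier stage for dsi-wu-mir-2208-3p and bmo-miR-3366, and the female means lie between 5.26 and 6.23.

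Females of Zimbabwe-109 and Oregon-R at puparium formation were on other slides than the males. All Oregon-R females shared a slide with Zimbabwe-109 replicates 1 and 2, while Zimbabwe-109 replicates 3 and 4 were on another. Their contrast called 49 probes (18%), 7 higher (2.57%) and 42 lower (15.4%). Of the 38 male calls, 36 had the same sign in females, 10 were called with it and 0 were called with the opposite sign. miR-289 fell by 1.72 (adjusted p = 1.05e-04) and bmo-miR-2779 by 2.14 (adjusted p = 3.41e-09) in females, and miR-956 was 1.28 higher (adjusted p = 0.00211). miR-305 and miR-125 fell by 1.55 and 1.27 in females (adjusted p = 6.58e-06 and 0.00358), where miR-279 differed by -0.05 (adjusted p = 0.975).

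The interaction with sex was called for 20 probes (7.35%) and for 7 of the 38. The 4 arms of dsi-wu-mir-2338 and dsi-wu-mir-2359 were among them. In females dsi-wu-mir-2338-5p averaged 6.23 ± 0.27 in Zimbabwe-109 and 5.55 ± 0.41 in Oregon-R (SD, n = 4), and its interaction was 5.37 ± 0.58 (adjusted p = 7.79e-11). With plain background subtraction that interaction was 9.42. Both dsi-wu-mir-2359 probes were below background in 8 of 8 female samples. bmo-miR-2774c, high in Oregon-R males, averaged 5.96 in females of both strains, with an interaction of -3.39 ± 0.28 (adjusted p = 8.38e-15). With 3 of these 4 groups at background its size depended on the background correction, at -8.04 with plain subtraction and -10.2 in the authors' deposited values, where it was not called (adjusted p = 0.274). cqu-miR-283 was not called in males against the mean of the 3 strains, at 0.27 ± 0.15 (adjusted p = 0.22). In females it differed from Oregon-R by -1.06 (adjusted p = 1.25e-05). Its interaction, which uses Oregon-R alone in both sexes, was 1.25 ± 0.25 (adjusted p = 3.70e-04).

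**Figure D5:**
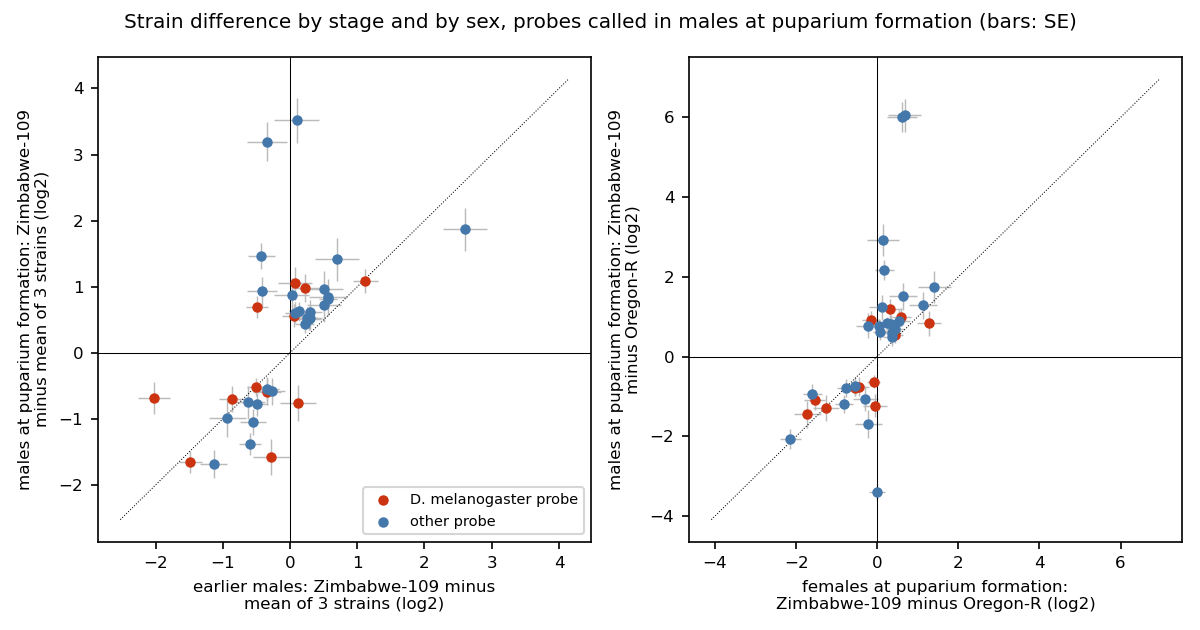
Strain differences (log2, bars give SE) of the 38 called probes in males at puparium formation, on the vertical axes, against the same contrast in earlier males (left) and the contrast with Oregon-R in females (right). The dotted line marks equal differences; on the left 33 of 38 probes share their sign and on the right 36 of 38 share the sign of the male contrast with the mean of 3 strains.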

How the data were processed

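Per the file headers, each deposited scanner file gives linear intensity values, the median pixel density of every spot in both dyes, and names the samples. Per the labels' protocols, a company (LC Sciences) labelled the RNA. The scanner, its software and any genome build are not named in the material used here. The authors also deposited processed intensity values for 4333 of 5022 spots; their scaling and centring are unknown, and they served as an alternative.

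From the scanner values, limma 3.58.1 with statmod 1.5.0 in R 4.3.3 was used for normexp correction on the 689 empty spots (offset 50), loess within arrays and Aquantile between them, and log2 values were made from the deposited intensity as the median over a probe's spots. A probe was above background where its median exceeded that of the empty spots by 3 SD, and tested where this held in at least 3 samples of some group. The fit covered all 72 samples in 18 groups, with a dye term, a random block for arrays (correlation 0.411) and Benjamini-Hochberg adjustment at 0.05 over 272 probes in each contrast; every adjusted p is limma's. A probe below background in a whole group has a bound there: the bright group's mean against, per dim sample, the higher of the lowest signal above background and the probe's own. The number of arrays limits the precision, and differences of dim probes are compressed by the offset. On data simulated for the main contrast with 272 probes, 55% of 20 changes of 0.5 and 100% of 20 changes of 1 were called. For changes of 2 it was 95% of 20, and for unchanged probes 0.943% of 212. The simulated data held array and sample noise from the fit but no effect of slide, so these shares do not cover it.

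The members and the 14 miRNA lists were chosen with earlier results of these data known. Named probes were the 12 largest rises and 12 largest falls with the same sign against each strain (1 probe per arm), called D. melanogaster list members, 6 fixed miRNAs, up to 6 probes per interaction with stage and with sex, and up to 4 with an opposite sign against 1 strain; 36 in all. Probe names are those of the array's design, a probe of several species goes by its D. melanogaster name, and the prefix of custom probes such as 53-3p and 73-3p is left out. Chromosome arms and neighbours come from RefSeq (Release 6). In whole animals, fewer cells of a type and less RNA per cell cannot be told apart. Samples of a group are biological replicates according to the design text. Replicate numbers did not pair the strains: over 21 pairs of groups, deviations of same-numbered samples correlated at -0.28 to 0.36, above 0.1 in 8. Alternatives covered the background, the normalization, the filters, the samples fitted, array and slide blocks, each strain and each sample left out.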

Additional observations from a re-analysis of the deposited data

Results flagged for a closer look

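Single samples stood apart from the other three of their strain in 11 of 144 sets of 4 samples (36 named probes in 4 strains), where chance gives about 1 in 20. In Zimbabwe-109, replicate 3 read 13.46 for dsi-wu-mir-2338-3p against 11.79 to 11.92 in the other three, and 6.99 for bmo-miR-2779 against 8.27 to 8.40. Replicate 4 of that strain read 6.25 for 53-3p against 6.82 to 6.88. Samarkand replicate 3 read 6.91 for miR-1010 (the others 6.09 to 6.23), 10.57 for lmi-miR-10 (11.07 to 11.15) and 12.38 for miR-279 (12.94 to 13.04). Samarkand replicate 4 read 10.04 for bmo-miR-2779 (9.08 to 9.11). Canton-S replicate 3 read 7.88 for 53-3p (7.51 to 7.53) and replicate 1 read 7.15 for aga-miR-276-5p (7.37 to 7.40). Oregon-R replicate 4 read 7.18 for miR-125 (8.69 to 8.90) and replicate 5 read 8.40 for bmo-miR-2774c (9.57 to 9.66).

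The strain difference itself differed between puparium formation and the earlier stage for 15 named probes, by the interaction in limma at an adjusted p under 0.05. The interaction, the difference at puparium formation minus that at the earlier stage, was positive for dsi-wu-mir-2338-5p (3.42), dsi-wu-mir-2338-3p (3.54), dsi-wu-mir-2359-5p (1.89), lmi-miR-10 (1.35), miR-279 (1.33), miR-10-5p (1.18), miR-956 (0.98), aae-bantam-3p (0.84) and miR-1010 (0.75). It was negative for bmo-miR-3366 (-5.48), dsi-wu-mir-2208-3p (-4.18), 73-3p (-2.08), miR-289 (-1.30), miR-125 (-0.87) and bmo-miR-2774c (-0.79).

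Between males and females at puparium formation, the difference of Zimbabwe-109 from Oregon-R differed for 8 named probes. The interaction was 5.37 and 5.41 for the 5p and 3p probes of dsi-wu-mir-2338, 2.80 and 2.00 for the 3p and 5p probes of dsi-wu-mir-2359, 1.25 for cqu-miR-283, 1.08 for dme-mir-2b-2-5p, -1.47 for aae-miR-92a and -3.39 for bmo-miR-2774c. Males and females were hybridized on separate slides, so the part of the slide in a level cannot be told apart from that of sex.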

How the results depend on the processing

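Against 38 called probes, the count was 24 with median centring, 2 in the authors' table after centring, 22 among the 99 probes above background in all 16 samples, 19 with slide as a random block, 24 without Oregon-R in the mean and 62 without Samarkand, and 25 to 43 when 1 sample was left out, lowest without Zimbabwe-109 replicate 1. The cause was not tested, beyond the smaller number of probes or samples entering some fits. Replicate numbers did not pair the strains, and the fit with the replicate block called 37. Leaving out Zimbabwe-109 replicates 3 and 4 together, chosen after seeing the data, gave 39. Against Samarkand 30 became 3 within the shared slide, where 5 samples remain. The earlier contrast went from 59 to between 38 and 74 without 1 sample, lowest without earlier Zimbabwe-109 replicate 2. Its interaction with stage went from 51 to 32 with median centring, 19 in the authors' table, 33 without the array block and 37 to 63 without 1 sample. The female contrast went from 49 to 28 with plain subtraction, 16 with median centring and 29 to 64 without 1 sample, lowest without Zimbabwe-109 female replicate 3.

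Of the named probes called against the mean of the 3 strains, miR-10-5p changed sign in that contrast, to -0.21 in the authors' table. miR-100 turned to 0.40 with plain subtraction, 0.0214 with offset 16, 0.0156 with median centring, 0.13 with quantile and 0.0836 with cyclic loess normalization, 0.26 in the authors' table, 0.87 after centring it, 0.18 without Oregon-R, 0.36 without Samarkand, and 0.24 without Zimbabwe-109 replicates 3 and 4. With 1 sample left out, miR-100 ranged from -0.22 to 0.15 and let-7 from -0.0055 to 0.30. In the authors' table let-7 was -0.27, miR-34 -0.15, miR-1 -0.65 (adjusted p = 0.0446) and bantam 0.24, and after centring it miR-1 was -0.0432 and bantam 0.85. let-7 was -0.11 with slide as a random block, -0.0873 without Canton-S, and bantam 0.0328 without replicates 3 and 4. Against Samarkand alone, 4 probes called against the mean turned: dsi-wu-mir-2359-3p, 53-3p, miR-31a and miR-279 were -0.23, 0.12, 0.0017 and 0.21 with slide as a fixed term and -0.24, 0.29, 0.16 and 0.0232 within the shared slide, where let-7 was 0.11 and miR-34 -0.0229. Levels near background, as for miR-1010 and dme-mir-314-5p, rest on few samples above it.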
